A study of Mus musculus with 7 samples.

Results

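MicroRNA precursor transcripts were examined in the CIRS-seq data of E14 mouse embryonic stem cells (ESCs), a line of the 129/Ola strain. Members were chosen by name: gene symbols beginning with Mir and a digit, or with mmu-mir-, without host genes ending in hg and without the mmu-mir-2134 entries. The files hold 34 such genes among 13218, with 1 transcript each and 25 distinct sequences, because mmu-mir-1194 has 8 identical copies and the pairs Mir692-2a and Mir692-2b and Mir1906-1 and Mir1906-2 are identical. By gene type, 32 are microRNA genes and 2, Mir155 and Mir706, are long intergenic noncoding RNAs (lincRNAs). GENCODE vM1 names 546 genes in this way, and the others were not analysed here.

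In CIRS-seq, cell lysate stripped of proteins with Proteinase K is treated with a reagent that modifies unpaired bases, and each place at which reverse transcription (RT) of the ribosomal RNA-depleted, randomly primed RNA ends is counted. Dimethyl sulfate (DMS, 50 to 200 mM) modifies mainly A and C, the carbodiimide CMCT (10 to 50 mM) mainly U and to a lesser extent G, and non-treated lysate (NT, 0 mM) gives the natural RT stops. Each treatment had 2 biological replicates, so there were 6 libraries, and RNA-seq of the same line had 1. Total RT stops ranged from 181944556 to 338201940 a library, and the members held 24288 to 42856 of them, in which every stop on an identical copy is counted once for each copy. These totals are summed over all transcripts, isoforms included. With each position counted once per gene, as in the fit, they were 140186204 to 247369982. Even these exceed the number of reads that the paper reports for a treatment, so stops are not separate reads. The 6 pluripotency mRNAs Pou5f1, Nanog, Sox2, Lin28a, Zfp42 and Dppa4 all carried RT stops in all 6 libraries, from 3.70 to 97.6 CPM (RT stops scaled to library size with the TMM factors of edgeR).

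A microRNA is made from a primary transcript that folds into a hairpin. The nuclease Drosha frees the hairpin, Dicer removes its loop, and 1 arm, or either, becomes the mature RNA, whose seed (bases 2 to 8) pairs with target mRNAs. ESCs are known for the Mir290 to Mir295 and Mir302 clusters and for the Mir17-92 cluster with its paralogs. Many loci once annotated as microRNAs lie instead in exons, pseudogenes, repeats or other small RNA genes, where reads of those RNAs fall on the annotated hairpin.

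Few well-known microRNAs were among the members. Of 7 genes of the Mir290 to Mir295 cluster in vM1, 1 was (Mir291b), and of 15 of the Mir17-92 cluster and its paralogs, 1 was (Mir18b). None of 5 genes of the Mir302 cluster, of 5 of the Mir15/16 family, of 2 broadly expressed genes and of 37 of the imprinted cluster on chromosome 12 was. Of 18 tissue microRNAs 1 symbol was, Mir155 of blood cells, as a lincRNA that holds the microRNA in an exon, and the microRNA gene of that name was not analysed here.

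The hairpins on which the results turn are printed here from mm9, 5′ to 3′, with capitals at each base that held 5% or more of the RT stops of that member over the 6 libraries. Mir18b lies at chrX:50095508-50095590 (minus strand), Mir291b at chr7:3219483-3219561 (plus), Mir1983 at chr13:21988787-21988918 (minus), mmu-mir-703 at chr9:78326335-78326442 (minus), Mir669h at chr2:10439782-10439906 (plus) and Mir690 at chr16:28600021-28600129 (minus).
Mir18b: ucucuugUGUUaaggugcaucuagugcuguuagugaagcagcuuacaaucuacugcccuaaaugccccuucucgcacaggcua
Mir291b: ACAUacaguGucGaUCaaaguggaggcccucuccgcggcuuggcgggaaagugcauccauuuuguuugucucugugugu
Mir1983: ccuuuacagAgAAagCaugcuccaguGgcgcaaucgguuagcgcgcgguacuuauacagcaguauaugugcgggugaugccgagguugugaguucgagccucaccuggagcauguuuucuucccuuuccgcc
mmu-mir-703: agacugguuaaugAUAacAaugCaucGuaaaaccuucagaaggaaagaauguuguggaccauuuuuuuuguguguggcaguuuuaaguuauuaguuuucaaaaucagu
Mir669h: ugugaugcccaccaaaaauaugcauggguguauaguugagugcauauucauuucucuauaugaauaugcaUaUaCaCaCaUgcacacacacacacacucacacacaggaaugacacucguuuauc
Mir690: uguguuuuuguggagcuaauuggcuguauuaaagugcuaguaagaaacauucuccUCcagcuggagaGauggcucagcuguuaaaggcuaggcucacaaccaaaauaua

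Mature RNAs of these hairpins, and that of the Mir692 genes, are printed from RefSeq (GRCm38.p6) with the seed in capitals, to show which bases the guide strand would use. Only miR-18b-3p, at bases 51 to 72 of Mir18b, is left out. RefSeq gave no sequence that matched for mmu-mir-689-2, mmu-mir-1194, Mir466f-1, Mir466f-2, Mir466f-3, Mir669h, Mir709 or Mir1935. The 3 Mir692 genes share 1 mature RNA, and otherwise no seed was shared between members of different sequence.
miR-18b-5p: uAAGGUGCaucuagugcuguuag
miR-291b-5p: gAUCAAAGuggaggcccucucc
miR-291b-3p: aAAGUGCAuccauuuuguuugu
miR-1983: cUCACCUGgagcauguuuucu
miR-703: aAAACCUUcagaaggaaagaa
miR-692: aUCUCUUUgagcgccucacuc
miR-690: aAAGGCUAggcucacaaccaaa

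The counts of both replicates were often closer than independent counts would be. Among positions of the members with at least 10 RT stops in both replicates together, the replicates differed by at most 1 stop at 39.4% of NT positions, 45.4% of DMS positions and 46.6% of CMCT positions, whereas independent counting at these library totals would give 19.5%, 19.3% and 6.84%. Over all transcripts the observed shares were 31.9%, 32.7% and 30.1%. In the plot of replicate 2 against replicate 1 such positions lie on the line of equal counts, although the CMCT libraries differed in depth.

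**Figure D1:**
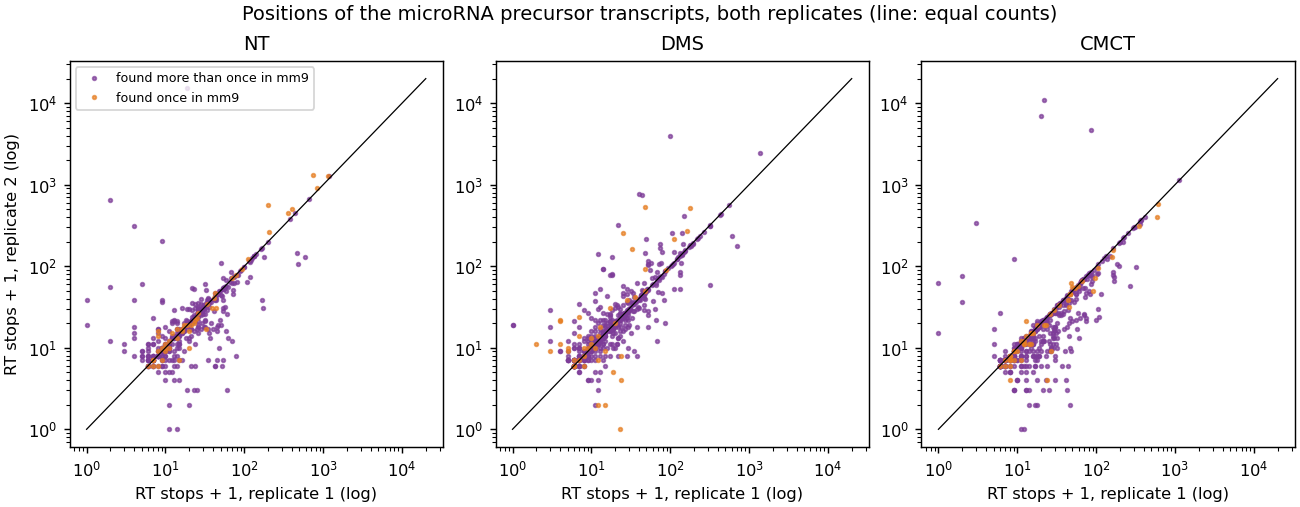
RT stops + 1 in replicate 2 (y axis, log) against replicate 1 (x axis, log) at each position with at least 10 stops in both together, for the 25 distinct member sequences in NT, DMS and CMCT; colours mark whether the 25 bases that follow the position occur once in mm9, and the line marks equal counts. Many positions lie on the line, and a few in replicate 2 lie far above it.

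For 6 members (Mir466f-1, Mir466f-2, Mir466f-3, Mir669h, Mir709 and Mir1934) the total differed by at most 3 stops between replicates in each treatment, which is less than sampling noise. For these the replicates were counted as 1 sample a treatment, and no p-value is given for them below. Why the counts are so close was not tested. Other members, whose totals differed by more than 3 in some treatment, were also close at most positions. In Mir690, 94.4%, 90.9% and 95.5% of the positions with at least 10 stops differed by at most 1 in NT, DMS and CMCT, and in Mir155 71.4%, 91.7% and 75% did, with totals of 145 and 145, 274 and 269, and 395 and 386. In Mir692-1 79.2%, 66.7% and 84.6% did, and in Mir682 70.4%, 55% and 63.6%. Mir466i and Mir1187 had 4 such positions or fewer a treatment, each differing by at most 1. The p-values of these 6 members treat as independent 2 replicates that may not be. Closeness was not limited to them. In NT, DMS and CMCT, 35.7%, 16.7% and 34.3% of such positions in mmu-mir-703 differed by at most 1, and 24%, 17.8% and 40.8% in Mir1983. The fit takes the replicates of all genes as independent, so this limit holds for every p-value and every share of genes called below.

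Mir18b belongs to the Mir106a to Mir363 paralog of the Mir17-92 cluster, and Mir291b to the Mir290 to Mir295 cluster. They were the 2 members that shared no 25-base stretch with another transcript in the files, lay in no exon of another gene in vM1 on their strand, and had all their RT stops where the 25 bases that follow occur once in mm9. RefSeq, however, has Mir291b within the span of the lncRNA gene D7Ertd143e and of Nlrp12, and whether stops and RNA-seq alignments there come from those RNAs was not tested. Both were weakly covered, with 196 and 126 RT stops over the 6 libraries.

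Mir18b fell in DMS. It held 0.213 and 0.349 CPM in NT, 0.0617 and 0.0907 in DMS and 0.190 and 0.283 in CMCT. Both DMS libraries lay below both NT libraries, and the CMCT libraries overlapped NT. The log2 fold change was -1.86 ± 0.47 (SE, n = 2 against 2) in DMS (edgeR quasi-likelihood test, adjusted p = 0.0111) and -0.25 ± 0.42 in CMCT (edgeR adjusted p = 0.686). The DMS call did not hold when only positions found once in mm9 were fitted for all genes, although the log2 fold change was nearly equal (-1.84, edgeR adjusted p = 0.0617), nor without NT replicate 2 (-1.48, adjusted p = 0.161) or without DMS replicate 1 (-1.62, adjusted p = 0.118). It had fewer than 20 stops in both DMS libraries.

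The RT stops of Mir18b gathered just before miR-18b-5p, which begins at base 11. Bases 8 to 10 held 85.3% and 78.6% of them in NT, 83.3% and 88.2% in DMS and 85.4% and 88.4% in CMCT, on 5.17% of the measured bases. Since a stop is written at the base next to the last one copied, a stop at base 10 is a cDNA that ended at the first base of the mature RNA. G9 led in both NT libraries (20 and 18 stops), and U8 had 2 and 2 stops in NT, 1 and 1 in DMS and 11 and 10 in CMCT. From base 13 on, 0 to 2 stops a library were counted, but 58 of the 83 bases are measured, so most of the 3′ arm cannot carry counts. Stops just before a mature RNA were not particular to Mir18b. Mir686, in an exon of Psmb5, had 46.6% of its stops over the 6 libraries on the 3 bases before miR-686, on 3.57% of its measured bases. By library this was 45.1% and 44.3% in NT, 29.5% and 21.6% in DMS and 60.2% and 62.1% in CMCT. In the other members the share over the 6 libraries was at most 14.8% (mmu-mir-703). In single libraries it was higher for some, up to 23.9% and 32.25% in CMCT for mmu-mir-703, which had 11.3% and 11.9% in NT.

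Mir291b had no such peak. Its levels were 0.150 and 0.208 CPM in NT, 0.0977 and 0.107 in DMS and 0.115 and 0.0592 in CMCT. Both treatments lay below NT without overlap, but neither difference passed the test (log2 fold change -0.79 ± 0.47 in DMS, edgeR adjusted p = 0.232, and -0.97 ± 0.47 in CMCT, adjusted p = 0.15). Its values are given although it had fewer than 20 stops in some libraries.

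The first 12 bases of Mir291b, before miR-291b-5p begins at base 13, held 66.7% and 76% of the stops in NT, 68.4% and 55% in DMS and 72.4% and 66.7% in CMCT. Bases 13 to 18 held nearly all others, and 2 stops in all lay beyond base 18, with 54 of the 79 bases measured. U4 led in NT (9 and 8 stops), A3 had 0 stops in NT and CMCT but 3 and 4 in DMS, and these counts are too low for a test. RNA-seq gave 79 alignments on Mir291b and 3 on Mir18b.

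**Figure D2:**
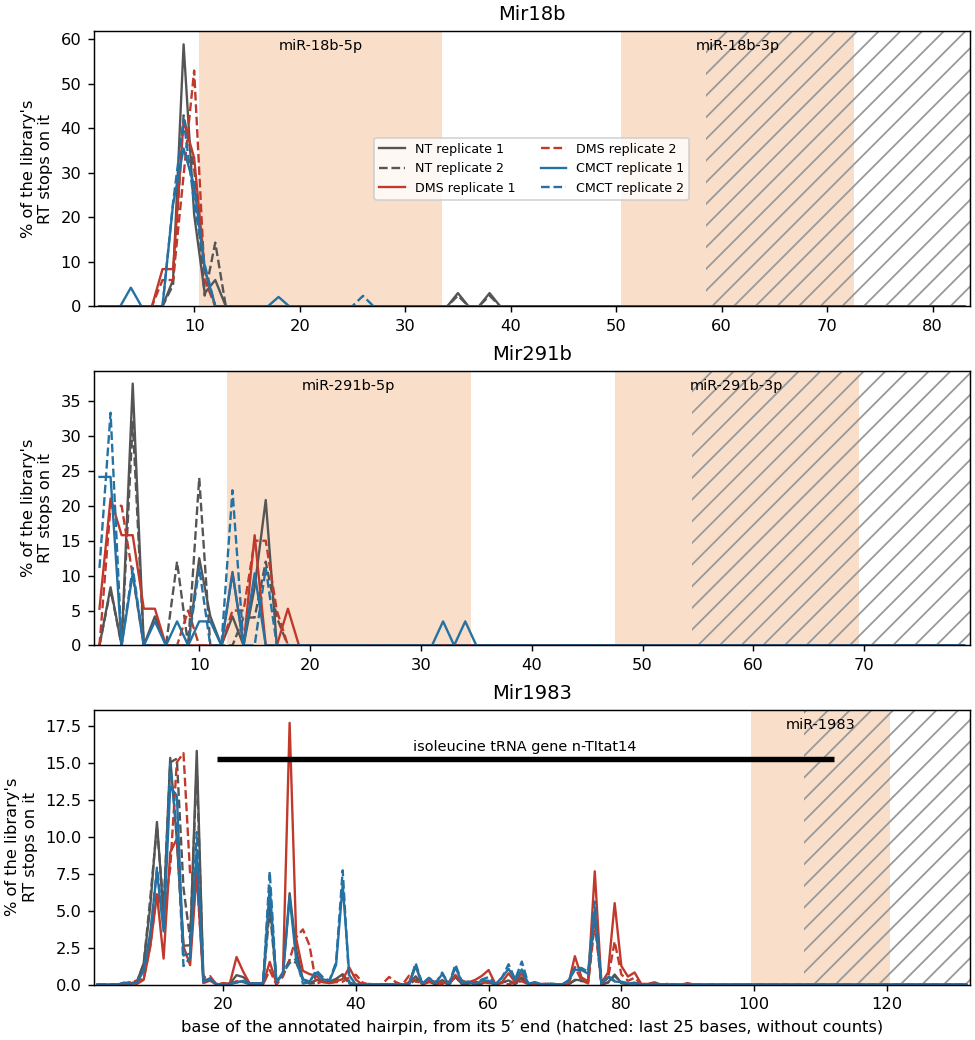
Percent of the RT stops of Mir18b, Mir291b and Mir1983 (y axis) at each base of the hairpin from its 5′ end (x axis), 1 line for each of the 6 libraries; shading marks the mature RNAs, the bar the tRNA gene inside Mir1983, and hatching the last 25 bases, which carry no counts. Stops gather before base 11 in Mir18b, on the first 18 bases of Mir291b and before the tRNA gene in Mir1983.

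Mir1983 was one of the most covered members, with 29817 RT stops, and it fell in both treatments. It held 47.3 and 71.6 CPM in NT, 9.31 and 18.2 in DMS and 17.97 and 25.6 in CMCT, so all 4 treated libraries lay below NT. The log2 fold change was -2.11 ± 0.39 in DMS (edgeR adjusted p = 0.00201) and -1.45 ± 0.38 in CMCT (edgeR adjusted p = 0.0143). With only positions found once in mm9 neither call held (log2 fold change -2.18 and -1.76, edgeR adjusted p = 0.0792 and 0.136), and without NT replicate 2 the CMCT call did not (-1.12, edgeR adjusted p = 0.187).

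RefSeq places an isoleucine tRNA gene, n-TItat14, inside Mir1983, at bases 19 to 112 of the hairpin. The RefSeq entries used here give no strand, and it is assumed below that the tRNA reads in the direction of the hairpin. A tRNA is first made with a 5′ leader and a 3′ trailer, which RNase P and RNase Z remove. The mature miR-1983 (bases 100 to 120) takes in the 3′ end of the tRNA and the bases after it, and from base 108 on it lies in the last 25 bases, which carry no counts.

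Most RT stops of Mir1983 lay before the tRNA. Bases 1 to 18 held 69.9% and 79.1% of them in NT, 41.9% and 69.1% in DMS and 56.2% and 55.96% in CMCT, nearly all at bases 8 to 16. At bases 8 to 15 the 25 bases that follow occur once in mm9. In counts, the stretch before the tRNA had 5276 and 6808 stops in NT, 758 and 2362 in DMS and 2553 and 2175 in CMCT, and the measured bases of the tRNA 2275 and 1796, 1052 and 1056, and 1994 and 1712.

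Within the tRNA single bases differed between treatments. U38 held 0.715% and 0.604% of the stops of Mir1983 in NT and 6.77% and 7.74% in CMCT, and 0.387% and 0.205% in DMS. G79 had 52 and 52 stops in NT, 100 and 100 in DMS and 10 and 10 in CMCT. Base 27, a G, had 434 and 445 stops in NT, 28 and 34 in DMS and 303 and 298 in CMCT. RNA-seq gave 29 alignments.

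Of the other members, 1 copy of mmu-mir-1194 lies in an exon of Slc16a6 on the same strand, and 5 members lie in exons of longer RNAs on the same strand: mmu-mir-703 in Eef1a1 (translation elongation factor), Mir686 in Psmb5 (proteasome subunit), Mir546 in Ctdsp2 (phosphatase), Mir719 in Nupl1 (nucleoporin) and Mir1906-1 in the imprinted lincRNA Meg3. Mir682 and Mir692-2a lie in pseudogenes and Mir692-2b in the gene Gm10116, Mir692-1 shares stretches with 19 other genes in the files, and Mir1906-2 is identical to Mir1906-1. In bulk RNA, reads of such a precursor and reads of the longer RNA at the same bases cannot be told apart. Mir546, Mir719 and the Mir1906 pair were added to the named genes after their values were seen.

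Mmu-mir-703 rose with both reagents. It held 3.87 and 3.902 CPM in NT, 12.99 and 12.8 in DMS and 7.45 and 8.502 in CMCT, with no overlap. The log2 fold change was 1.73 ± 0.23 in DMS (edgeR adjusted p = 0.000442) and 1.04 ± 0.23 in CMCT (edgeR adjusted p = 0.00552). At positions found once in mm9, which held 1.48% of its stops, neither call held (log2 fold change 1.48 and -0.14, edgeR adjusted p = 0.129 in DMS).

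All 83 measured windows of 25 bases in mmu-mir-703 also occur in Eef1a1, whose transcript had 926 and 740 RT stops at the same bases in NT where the precursor entry had 618 and 469. In DMS these were 3544 and 3413 against 2526 and 2400. Elsewhere in the Eef1a1 mRNA the level was 81.2 and 42.2 raw stops a base in NT, 131 and 104 in DMS and 137 and 63.5 in CMCT. In raw counts the treated libraries thus stood further above NT on the hairpin than on the rest of the mRNA, a difference that was not tested.

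Single bases of mmu-mir-703 moved with the reagent. A16 went from 21 and 23 raw stops in NT to 320 and 314 in DMS and 22 and 21 in CMCT, A19 from 14 and 15 to 270 and 263 and to 26 and 25, and A31 from 3 and 5 to 179 and 179 and to 5 and 5. G27, 2 bases before miR-703 begins, went from 50 and 43 in NT to 134 and 110 in DMS and 355 and 328 in CMCT. The share of its stops on A or C was 52.6% and 49.9% in NT and 74.3% and 78.5% in DMS.

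The Mir692 genes and Mir682 did not pass the test. Mir692-2a and Mir692-2b each held 19.1 and 12.1 CPM in NT, 19.04 and 17.9 in DMS and 9.61 and 10.3 in CMCT, where CMCT lay below NT (log2 fold change -0.65 ± 0.27, edgeR adjusted p = 0.0966). Their sequence lies in Gm10116 and, for the most part, in the ferritin light chain pseudogene Ftl2, and 19 other genes in the files share 25-base stretches with it. At the same bases the copies received unequal counts in NT replicate 1, with 6250 stops in Gm10116 and 3049 in each Mir692-2 entry. Ftl2 had 1088 stops at the part of the sequence that it shares, so its count covers fewer bases. Mir692-1 held 6.55 and 8.20 CPM in NT, 7.70 and 8.91 in DMS and 4.87 and 7.56 in CMCT (log2 fold change 0.17 ± 0.27, edgeR adjusted p = 0.67, and -0.25 ± 0.27, adjusted p = 0.528), and its A17 had 19 and 18 raw stops in NT and 216 and 215 in DMS.

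Mir682, which shares all its sequence with the pseudogene Gm4149, held 3.52 and 3.45 CPM in NT, 3.45 and 3.24 in DMS and 2.38 and 2.89 in CMCT (log2 fold change -0.06 ± 0.24, edgeR adjusted p = 0.88, and -0.40 ± 0.24, adjusted p = 0.25). The level in DMS was near that in NT but the positions differed, since A36 had 12 and 13 stops in NT, 152 and 151 in DMS and 31 and 32 in CMCT. Likewise Mir686 (0.638 and 0.508 CPM in NT, 0.663 and 0.470 in DMS, log2 fold change -0.02 ± 0.33, edgeR adjusted p = 0.972) had 34.3% and 23.0% of its stops on A or C in NT and 60.5% and 65.9% in DMS.

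Mir546 and Mir719 were found once in mm9 along their whole length. The Mir546 entry held 84.8% of the stops that Ctdsp2 had at the same bases. Nupl1 shares 105 of the 110 bases of Mir719 and had 279 stops there, and the whole Mir719 entry had 160, or 57.3% of that number. Mir719 held 0.106 and 0.0250 CPM in NT, 0.154 and 0.155 in DMS and 0.202 and 0.197 in CMCT (log2 fold change 1.15 ± 0.55, edgeR adjusted p = 0.139, and 1.52 ± 0.54, adjusted p = 0.0535). Mir546 and the Mir1906 pair did not pass either (edgeR adjusted p from 0.11 to 0.732).

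The 6 hairpins Mir466f-1, Mir466f-2, Mir466f-3, Mir669h, Mir466i and Mir1187 hold runs of CA and UG, and all 6 were higher in DMS than in NT in every library. The letters CACACACA or UGUGUGUG occurred in these 6 and in mmu-mir-703, against 1.88% of all 94-base windows of the listed transcripts. The 4 named first lie in an intron of the Polycomb group gene Sfmbt2, which is known in rodents for a large microRNA cluster. The median stop of each was followed by 25 bases that occur 17 to 10514 times in mm9, so reads of these loci and of their other copies cannot be told apart.

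Mir669h had 366 raw RT stops in NT replicate 1 and 1 more in replicate 2, 2003 and 2006 in DMS and 1026 and 1026 in CMCT. Mir466f-1 had 130 and 129, 1097 and 1097, and 419 and 419. Mir466f-3 had 37 and 38, 323 and 323, and 113 and 113, and Mir466f-2 had 8 and 7, 107 and 108, and 34 and 34. These are the entries whose replicates were counted as 1 sample, and their log2 fold changes, without a test, were 1.98, 2.61, 2.63 and 3.37 in DMS and 1.01, 1.22, 1.12 and 1.69 in CMCT.

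Mir1187 and Mir466i, on chromosomes 5 and 13, rose in DMS as well. Mir1187 went from 0.0501 and 0.108 CPM in NT to 0.411 and 0.432 in DMS (log2 fold change 2.45 ± 0.47, edgeR adjusted p = 0.00245) and 0.150 and 0.243 in CMCT (1.33 ± 0.49, edgeR adjusted p = 0.0619). Mir466i went from 0.113 and 0.0998 to 0.262 and 0.288 in DMS (1.36 ± 0.42, edgeR adjusted p = 0.031) and had 0.166 and 0.250 in CMCT (0.94 ± 0.43, edgeR adjusted p = 0.125). Both had fewer than 20 stops in some libraries. Leaving out NT replicate 1 ended both DMS calls (edgeR adjusted p = 0.0599 and 0.126), and that of Mir466i was also lost without NT replicate 2 (0.202), DMS replicate 1 (0.106) or DMS replicate 2 (0.0767).

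The stops of Mir669h stayed at the same bases whatever the treatment. Bases 71 to 79 held 85.8% of them in each NT library, 83.8% in each DMS library and 86.8% in each CMCT library. This stretch lies on the 3′ side of the hairpin, and bases that RNAfold left unpaired held at most 1.64% of the stops of Mir669h in any library.

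Other repeated sequences moved in various ways. Mir690 fell in DMS, from 6.82 and 9.12 CPM in NT to 2.78 and 3.16 (log2 fold change -1.42 ± 0.29, edgeR adjusted p = 0.00309), with 7.17 and 11.9 in CMCT (0.26 ± 0.28, edgeR adjusted p = 0.536). The DMS call did not hold without NT replicate 2 (edgeR adjusted p = 0.0623). C57 alone held 60.6% and 60.9% of its stops in NT, 27.0% and 31.4% in DMS and 62.2% and 62.5% in CMCT.

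In raw counts the lower stops of Mir690 in DMS lay mostly at 1 base. C57 went from 660 and 667 raw stops in NT to 146 and 186 in DMS and 1129 and 1129 in CMCT. From base 58 on, where the following bases occur 17 to 518 times in mm9, Mir690 had 259 and 258 stops in NT, 341 and 342 in DMS and 494 and 494 in CMCT.

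The 8 copies of mmu-mir-1194 had the same totals in each library and count as 1 measurement. Each copy shares stretches with 71 other genes in the files, the other copies among them. The bases that follow its median stop occur 1537 times in mm9, and none of its stops lay at positions found once. Reads of these loci and of their other matching places therefore cannot be told apart. Each copy held 0.607 and 0.924 CPM in NT, 0.247 and 0.219 in DMS and 0.447 and 0.368 in CMCT. They fell in DMS (log2 fold change -1.71 ± 0.36, edgeR adjusted p = 0.00375, and 0.0745 without NT replicate 2) and did not pass in CMCT (-0.90 ± 0.34, edgeR adjusted p = 0.0708).

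Mmu-mir-689-2 stood apart through its replicates. This hairpin of 57 bases, which shares all its measured sequence with mmu-mir-2134 entries, had 114 and 16873 raw stops in NT, 2225 and 9691 in DMS and 165 and 23173 in CMCT, so replicate 2 was higher in each treatment. The difference lay at bases 1 to 12, where C4 had 18 and 15436 stops in NT. From base 13 on the replicates were equal, with 36 and 36, 262 and 262, and 14 and 14 stops. Its log2 fold changes of -1.16 ± 1.75 and 0.12 ± 1.73 did not pass the test (edgeR adjusted p = 0.657 and 0.968). With the replicate number as a block the DMS value turned to 2.24 (edgeR adjusted p = 1.1e-04), and without DMS replicate 2 it was -2.63 (edgeR adjusted p = 5.6e-06), so no direction is given.

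Mir1935, Mir1934 and Mir709 did not pass the test or were counted as 1 sample a treatment. Mir1935, in an intron of Bcas3, held 0.895 and 1.12 CPM in NT, 0.694 and 0.651 in DMS and 0.628 and 0.717 in CMCT (log2 fold change -0.58 ± 0.30, edgeR adjusted p = 0.174, and -0.59 ± 0.30, adjusted p = 0.177). Mir1935 shares stretches with 361 other genes in the files, and the bases that follow its median stop occur 9 times in mm9. In Mir709, in an intron of Rfx1, C63 alone held 78.3% of the stops in each NT library and 92.2% to 96% in the treated ones. C63 is the last of the 63 measured bases of Mir709, and the 25 bases that follow it occur 68 times in mm9. In Mir1934, 55.3% of the stops in each NT library lay on C57 and 34.2% on G58, at the end of its 58 measured bases. The following 25 bases occur 19 and 38 times in mm9.

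In the lincRNA Mir155, known from activated lymphocytes, the stops lay away from the microRNA. It went from 0.908 and 1.21 CPM in NT to 1.56 and 2.54 in CMCT (log2 fold change 0.95 ± 0.32, edgeR adjusted p = 0.04), and had 1.41 and 1.44 in DMS (0.43 ± 0.32, edgeR adjusted p = 0.339). Bases 829 to 888 held 95.2% to 97.7% of these stops in each library, and the following 25 bases of the median stop occur 638 times in mm9. The CMCT call was lost with DESeq2 size factors (edgeR adjusted p = 0.0833) and in the 5 fits that left out NT replicate 1 (0.199), NT replicate 2 (0.129), DMS replicate 1 (0.0615), DMS replicate 2 (0.158) or CMCT replicate 2 (0.252), and at positions found once in mm9 the log2 fold change was -0.51. From the start of miR-155-5p to the end of miR-155-3p there were 0 of 1614 stops. This allows a share of up to 0.186% if the stops of both replicates are independent counts, and a larger one if they are not.

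Mir706 held 32.9 and 42.3 CPM in NT, 24.3 and 25.3 in DMS and 27.2 and 32.5 in CMCT, and did not pass the test (log2 fold change -0.60 ± 0.29, edgeR adjusted p = 0.143, and -0.34 ± 0.29, adjusted p = 0.424). Its 2233 bases share 25-base stretches with 1402 other genes in the files. On the mature miR-706 itself, bases 1444 to 1465, 0 to 6 stops a library were counted, and the 3 bases before it held 0.402% of the stops on 0.136% of the measured bases.

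**Figure D3:**
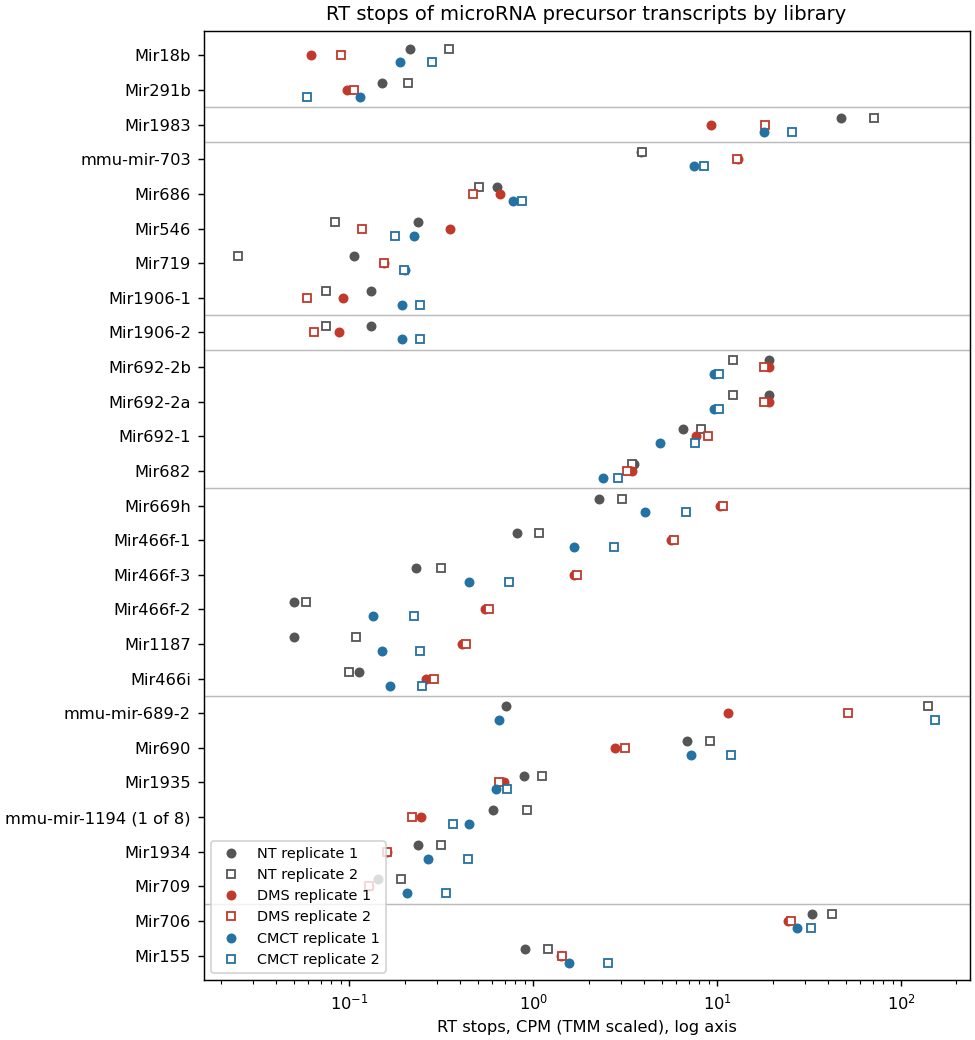
RT stops in CPM (TMM scaled, x axis, log) for each member in each of the 6 libraries, with mmu-mir-1194 shown as 1 of its 8 equal copies; lines separate the groups of the text, from the ESC cluster precursors at the top to the lincRNAs at the bottom. Mmu-mir-689-2 has the widest spread between replicates, and the 6 CA repeat hairpins all lie highest in DMS.

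Leaving out the 6 members of near-equal replicates, 14 of 28 members passed the test in DMS (edgeR adjusted p under 0.05), 3 higher (mmu-mir-703, Mir466i and Mir1187) and 11 lower, of which 8 are copies of mmu-mir-1194. Of all 13216 genes tested 26.4% passed, 13.8% higher and 12.5% lower. The fit itself, which takes the replicates of all members as independent, called 18 of 34, 7 higher and 11 lower, and counted once for each distinct sequence 11 of 25. Without NT replicate 2 it called 7 of 34, and 13% of all genes. The median log2 fold change was 0.01 over all genes, -0.47 over the 34 members, -0.02 over the distinct sequences and -0.59 without the 6.

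In CMCT 3 of these 28 members passed, 2 higher (mmu-mir-703 and Mir155) and 1 lower (Mir1983), and of all genes 29% did, 15% higher and 13.9% lower. The fit over all members called 7 of 34, 6 higher and 1 lower. This balance depended on the fit. The DESeq2 Wald test called 6 higher and 13 lower (of all genes 19.3% and 18%), the replicate block 10 higher and 9 lower (20.3% and 17.8%), and the fit without DMS replicate 2 called 5 higher and 12 lower (11% and 18%). With DESeq2 size factors, which moved the median log2 fold change of all genes from 0.11 to 0.00866, 4 of 34 were called (of all genes 20.4%), without NT replicate 2 it was 1 (12.1%), and without CMCT replicate 1 it was 22 (33.3%). The median over the 34 members was -0.07, over the distinct sequences 0.35 and without the 6 members -0.37. Both comparisons share the NT libraries.

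**Figure D4:**
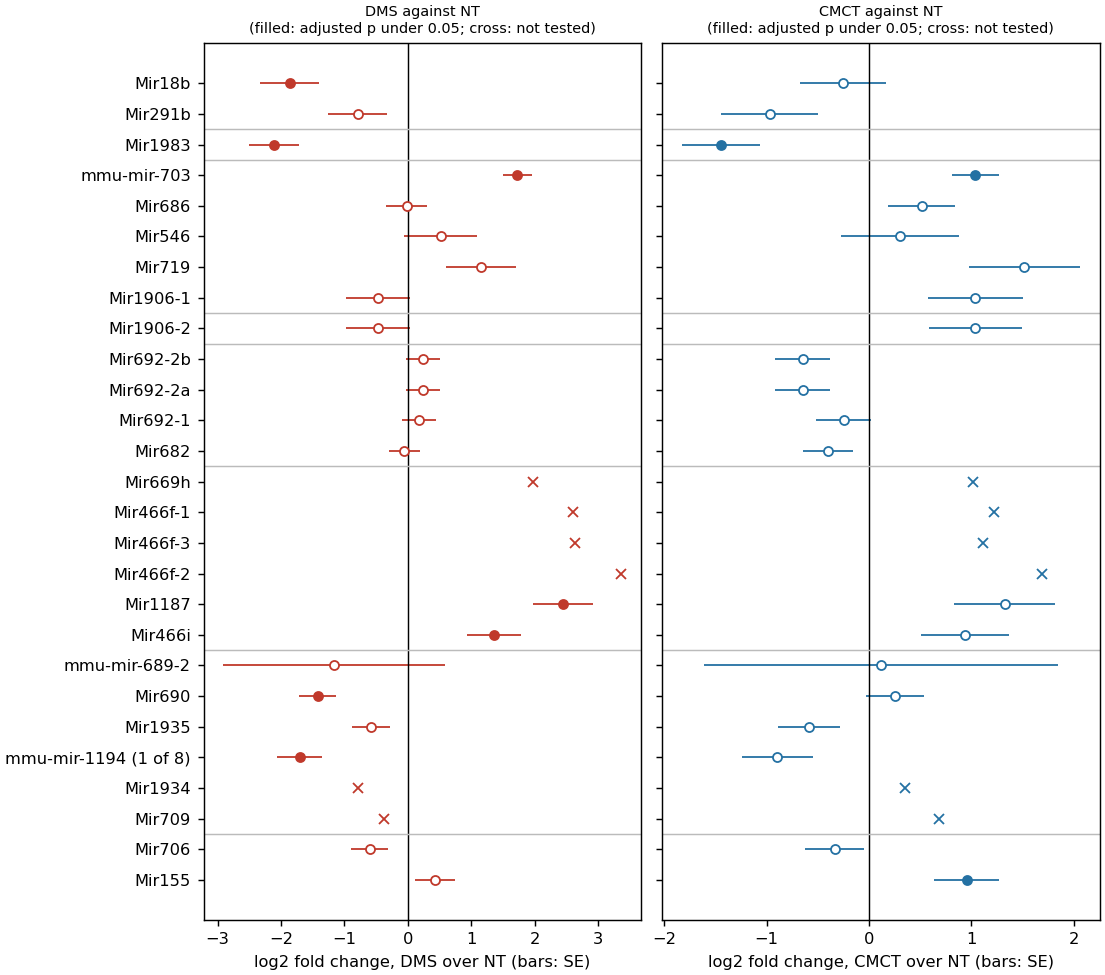
Log2 fold change of RT stops against NT (x axis) in DMS (left) and CMCT (right) for each member, with bars of 1 SE from the fit over 6 libraries, filled points where the edgeR adjusted p was under 0.05, and crosses without bars for the 6 members whose replicates counted as 1 sample and were not tested. Mmu-mir-703 has filled points at 1.73 and 1.04, and Mir1983 at -2.11 and -1.45.

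For the bases at which RT stopped, 25 members had at least 20 stops in every library, and each library was summarised by the mean share over them. Of the 6 members whose replicates counted as 1 sample, 5 are among these 25, so the tests of shares take as separate some counts that may not be. Of the measured bases of these members 46.3% were A or C. In NT 47.7% and 52.6% of the stops lay on A or C, and in DMS 52.2% and 62.1%. The difference of 6.97 percentage points did not exceed the spread between replicates (two-sided exact permutation test, p = 0.667, where the smallest p that 2 against 2 allows is 0.33). With all stops pooled over the members it was -7.42, with members of at least 100 stops in each library 2.56, and with 1 copy of each sequence 4.66. The pooled value gives much weight to 1 base, since C4 of mmu-mir-689-2 had 18 and 15436 stops in NT, where all 34 members held 24288 and 38400. Pooling without this base was not run. At positions found once in mm9 (4 members) it was 10.2, and without positions of near-equal replicates (19 members) 9.69, and in both DMS lay above NT without overlap (exact permutation test, p = 0.33 for each).

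Of the bases DMS modifies, A held a larger share in DMS. A held 9.23% and 9.37% of the stops in NT, 17.2% and 22.7% in DMS and 10.2% and 10.4% in CMCT, without overlap between DMS and the others (two-sided exact permutation test, p = 0.33). C held 38.5% and 43.3% in NT, above its 23.2% of the measured bases. In DMS it held 35.0% and 39.4%, which overlapped NT (two-sided exact permutation test, p = 0.667). With at least 100 stops in each library (-8.83 percentage points) and with 1 copy of each sequence (-5.75), C was lower in DMS without overlap (exact permutation test, p = 0.33 for each). In the 4 members with enough stops at positions found once in mm9 the order was the other way, with A at 20.1% and 20.6% in NT and 18.4% and 19.3% in DMS, and C at 35.9% and 37.5% in NT and 50.3% and 46.5% in DMS. Stops of treated libraries include the natural ones, which were not subtracted here.

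In CMCT 54.2% and 54.0% of the stops lay on G or U, against 52.3% and 47.4% in NT, a difference of 4.30 percentage points (two-sided exact permutation test, p = 0.33). With all stops pooled over the members it was 20.04, and with at least 100 stops in each library (3.17) or with 1 copy of each sequence (2.85) the libraries overlapped (exact permutation test, p = 0.667 for each). Without positions of near-equal replicates it was 7.80. U carried this, with 31.3% and 29.0% in NT, 35.4% and 38.03% in CMCT and 28.3% and 23.2% in DMS. G held 21.0% and 18.4% in NT and 18.8% and 16.003% in CMCT.

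Bases that RNAfold left unpaired made up 37.96% of the measured bases and held 37.3% and 33.7% of the stops in NT, 39.4% and 42.9% in DMS and 43.1% and 38.7% in CMCT. Each entry was folded alone, the lincRNAs in full. Many of these stops cannot be told apart from those of longer RNAs or of other copies. The predicted pairs therefore need not be those of the RNA that was read. Both treatments lay above NT, by 5.70 and 5.42 percentage points (two-sided exact permutation test, p = 0.33 for each). With 1 copy of each sequence the differences were smaller, at 3.20 and 3.15 points. With all stops pooled, where mmu-mir-689-2 weighs heavily in NT replicate 2, they were 9.97 and 8.55. In both of these settings CMCT overlapped NT (exact permutation test, p = 0.667 for each) and DMS did not (p = 0.33 for each). In the 13 members with at least 100 stops in each library the differences were 2.18 and 1.90 points and the libraries overlapped (exact permutation test, p = 0.667 for each), with 33.2% and 28.0% in NT, 34.8% and 30.8% in DMS and 34.1% and 30.9% in CMCT. The share was higher in DMS than in NT for 21 of the 25 members and in CMCT for 19, among which 8 are copies of mmu-mir-1194, and with 1 copy of each sequence for 13 and 12 of 17. In the 4 members with enough stops at positions found once in mm9 both differences were negative, at -7.78 and -4.13 percentage points.

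**Figure D5:**
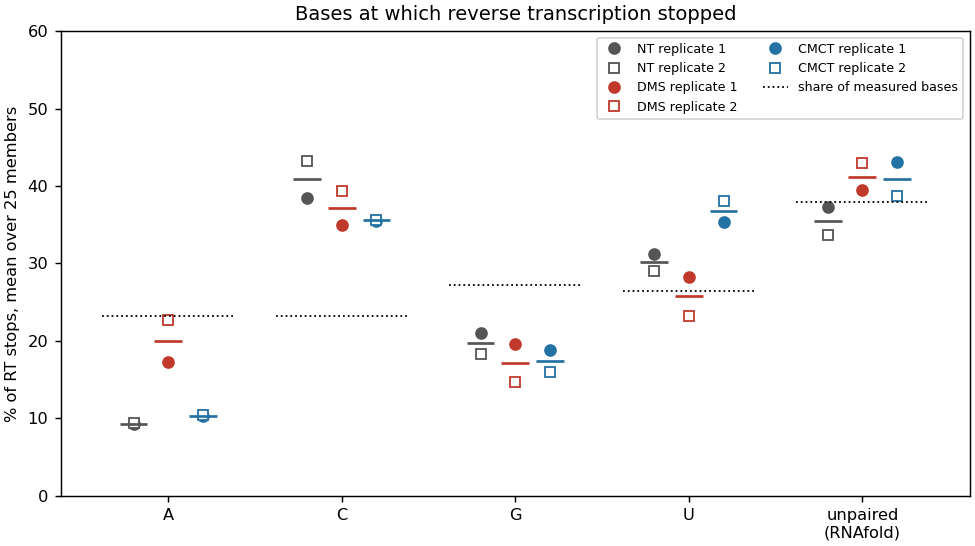
Percent of RT stops (y axis, mean over 25 members) on each base and on bases that RNAfold left unpaired, for each library (points) with the mean of each treatment (short lines) and the share of the measured bases (dotted). A is highest in DMS, between 17.2% and 22.7%, and U in CMCT, between 35.4% and 38.03%.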

How the data were processed

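RT stops were counted per transcript base by the authors, who deposited the counts, not normalized, for 6 CIRS-seq libraries, and alignments in genome coordinates for 1 RNA-seq library. RNA-seq alignments were counted here on either strand where 0.5 or more of the read lay on a member. Reads were aligned by the authors to a version of mm9 that carries single-base differences of E14 cells, whereas sequences and repeat counts here come from mm9 itself, and the submitters' processing notes name Bowtie 1.0.0, TopHat2 2.0.6, FastQC 0.10.1 and bedtools 2.17.0. How reads with several matching places were counted is not given in the sources used here, and counts of repeated sequences depend on it. The last 25 bases of each transcript carry no counts.

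Counts were summed per gene over GENCODE vM1 (0.0799% to 0.185% of stops lay outside it). All 13216 genes that passed filterByExpr were fitted in edgeR 4.0.16 (R 4.3.3, TMM scaling, quasi-likelihood test, 6 libraries) with Benjamini-Hochberg adjustment and a threshold of 0.05. The fit was also run on simulated counts, which were drawn independently for each library. That run cannot show how the test behaves where replicates are not independent. DESeq2 1.42.0 was an alternative. Levels are TMM-scaled CPM. A position was called found once where the 25 bases that follow it occur once in mm9 on both strands, which held for 6.95% to 11.4% of all stops. Folds came from ViennaRNA 2.7.2, shares of stops were compared by exact permutation over libraries, and members with at least 20 stops in every library entered them. Natural stops were not subtracted. The SE of a log2 fold change comes from the fit and includes the spread between libraries, whereas the floor (3 counts) covers counting error only.

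Named members were the 20 with the most stops, those in the lists of well-known microRNAs (with values where they had at least 20 stops in each library) and, in each comparison, the 5 with the largest called rise and the 5 with the largest called fall that moved alike in both same-numbered pairs. Mir291b did not reach that minimum, so its values fall outside this rule, Mir18b entered as a called fall, and Mir546, Mir719, Mir709, Mir1934 and the Mir1906 pair were named after their values were seen. The members and lists were chosen with earlier results of these data known. P-values of the fit rest on the spread between replicates, estimated over all 6 libraries. Those of the shares rest on permutations of 2 libraries against 2. The sequence and single positions of Mir466f-1 are not reported here.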

Additional observations from a re-analysis of the deposited data

How the results depend on the processing

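Counts of calls and log2 fold changes were recomputed with DESeq2 size factors, the DESeq2 Wald test, no filter on low counts, a replicate block, without each library and, for the 14 members that could be tested there, at positions found once in mm9. Shares were recomputed with pooled stops, a higher minimum of stops, positions found once, a replicate block and without each library. Some settings were added after seeing the data. Calls of the unchanged fit were recounted with 1 copy of each sequence and without the 6 members of near-equal replicates. Shares were recomputed with 1 copy of each sequence and without near-equal positions. Of all genes, 5595 were called in DMS by the Wald test, 1030 of 11521 with positions found once, 5616 with the replicate block and 1719 to 4619 without 1 library. In CMCT 2700 were called with DESeq2 size factors, 4931 by the Wald test, 5030 with the replicate block, 641 of 11521 with positions found once and 1600 to 4402 without 1 library.

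Of the members, in DMS 4 were called with positions found once (14 tested; of all genes 8.94%), 11 with 1 copy of each sequence, 20 with the replicate block (42.5%) and 7 to 20 without 1 library (13% to 35%). In CMCT 4 were called with DESeq2 size factors (of all genes 20.4%), 19 by the Wald test (37.3%), 19 with the replicate block (38.1%), 3 without the 6 members of near-equal replicates and 1 to 22 without 1 library (12.1% to 33.3%). With positions found once edgeR called 0 in CMCT (of all genes 5.56%), where 5 had an unadjusted p under 0.05. By their labels the replicates share only a number. Yet the deviations from the group means of same-numbered libraries correlated at 0.553 for NT with DMS. For NT with CMCT the correlation was 0.0101 and for DMS with CMCT -0.107. The fit as reported has no term for the replicate number, so what same-numbered NT and DMS libraries share is not modelled there.

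Without 1 library the difference in share ranged from 2.01 to 11.9 percentage points for A and C in DMS, 1.84 to 6.77 for G and U in CMCT, 3.92 to 7.48 for unpaired bases in DMS and 3.19 to 7.65 in CMCT. Without near-equal positions it was 9.69 for A and C in DMS, 7.80 for G and U in CMCT, and for unpaired bases 3.72 in DMS and 4.51 in CMCT. It reversed for A and C in DMS when stops were pooled over members (-7.42) and for unpaired bases at positions found once (-7.78 in DMS and -4.13 in CMCT). The pooled value gives much weight to C4 of mmu-mir-689-2 in NT replicate 2, a member for which no direction is given.

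Log2 fold changes reversed at positions found once for Mir155 (-0.51 in CMCT and -0.25 in DMS), Mir466f-3 (-0.52 in CMCT), Mir686 (0.22 in DMS), Mir690 (-0.50 in CMCT), Mir692-1 (-0.43 in DMS), Mir706 (0.37 in CMCT) and mmu-mir-703 (-0.14 in CMCT). For mmu-mir-689-2 it was -0.10 in CMCT with DESeq2 size factors and with the Wald test, and 2.24 in DMS with the replicate block (adjusted p = 1.1e-04 in edgeR). Without 1 library the reversed ones ranged, in CMCT, from -0.58 to 0.13 for Mir18b, -0.034 to 0.68 for Mir1934, -0.23 to 1.28 for Mir546, -0.15 to 0.58 for Mir690, -0.60 to 0.035 for Mir692-1 and -6.76 to 6.74 for mmu-mir-689-2. In DMS they ranged from -0.83 to 0.017 for Mir1906-1, -0.48 to 1.501 for Mir546, -0.29 to 0.16 for Mir686, -0.071 to 0.34 for Mir692-1, -0.046 to 0.61 for Mir692-2b and -2.63 to 5.47 for mmu-mir-689-2. The other recomputed log2 fold changes kept their direction. Apart from the smaller number of genes or libraries in some fits, the cause was not tested.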
